A study of Mus musculus with 18 samples.

Results

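JAK-STAT signalling and its SOCS feedback were followed through 9 genes, taken by name from the gene count table out of 56748 genes listed there: the receptor genes Ifnar1 and Ifnar2, the kinase genes Jak1, Jak2 and Tyk2, the transcription factor genes Stat2 and Stat3, and the inhibitor genes Socs1 and Socs3. All 9 had enough counts to be tested. RNA was sequenced from RAW 264.7 cells, an immortalised mouse macrophage line, in 18 libraries, 3 for each of 6 conditions. Control cells received no treatment after plating. TBHQ cells received tert-butylhydroquinone, a phenolic food antioxidant, at 5 µM and were harvested after 4 h. LPS cells received bacterial lipopolysaccharide at 0.1 µg/mL for 12 h, and PIC cells received poly I:C, a synthetic double-stranded RNA, at 20 µg/mL for 12 h. LPS+TBHQ and PIC+TBHQ cells were given TBHQ at 5 µM first, and LPS or PIC was applied 4 h later for 12 h.

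As background, type I interferons bind a receptor built from the products of Ifnar1 and Ifnar2, which activates the kinases TYK2 and JAK1 and, through STAT2 and its partners, genes carrying the interferon-stimulated response element. Cytokines of the IL-6 and IL-10 families act through JAK kinases on STAT3. SOCS proteins are induced by this signalling and inhibit it, SOCS1 at the kinases and SOCS3 mainly at receptors such as gp130. Macrophages exposed to LPS or double-stranded RNA secrete type I interferon and other cytokines that feed back on the same cells through this pathway.

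The design limits some comparisons. TBHQ was dissolved in DMSO, whereas the methods describe control cells as given no further treatment. No DMSO is described for the cells given LPS or PIC alone either. TBHQ and its solvent therefore cannot be told apart in any comparison of conditions with and without TBHQ. The paper's timeline places Control with the 12 h conditions, whereas TBHQ alone was harvested at 4 h. Harvest time and treatment therefore cannot be told apart where TBHQ alone is set against Control or against the stimulated conditions. Whether TBHQ was removed before the stimulus is not given in the sources used here. In bulk RNA, fewer cells of a kind and less RNA per cell cannot be told apart.

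Library totals ran from 14423390 to 18851626 counts, with a median of 15742337.5. A gene with 3 counts or fewer in a library was taken as not detected there. Among 8 macrophage markers 7 were abundant. Lyz2, which encodes lysozyme, averaged 4021 FPKM, and Cd68, which encodes a lysosomal glycoprotein, averaged 657.6 FPKM. Mertk reached at most 5 counts in a library. Of 5 T cell markers and 5 epithelial markers, each stayed at or under this floor in the 18 libraries. Of 5 B cell markers 2 passed it, with at most 10 counts, and of 5 fibroblast markers 2 passed it, with at most 9 counts.

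Levels are given as the deposited FPKM, so that genes can be set beside each other. These scale counts by gene length and library total and also carry a constant per library that differs between conditions. It was 0.943 to 0.951 in Control, 0.945 to 0.954 in TBHQ, 1.005 to 1.015 in LPS and 0.992 to 0.999 in LPS+TBHQ. In PIC+TBHQ it was 1.051 to 1.056 and in PIC 1.112 to 1.116. Orders and overlaps of conditions are therefore given on FPKM and set beside CPM from library totals alone, which lack the constant. No pair of conditions changed between overlapping and separate libraries for Stat2, Jak1, Jak2 or Socs3, and for the other genes such changes are given where a stated result rests on them. Fold changes are log2 values from the counts, relative to the bulk of genes (TMM scaling), each with a standard error (SE) from the spread of log2 CPM between the 3 libraries of each condition. A gene was called at an adjusted p (FDR) below 0.05 in edgeR over 13691 tested genes.

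In Control cells Jak1 was the most abundant of the 9 genes at 26.1 ± 1.74 FPKM (SD, n = 3), followed by Stat2 at 13.7 ± 0.641 FPKM. Ifnar1, Ifnar2, Stat3, Tyk2 and Jak2 had mean levels from 7.94 to 12.6 FPKM. The SOCS genes were lowest, Socs3 at 2.46 ± 0.0529 FPKM and Socs1 at 0.675 ± 0.0988 FPKM. After LPS or PIC the order changed at the top, with Socs3 at 43.8 FPKM after LPS and 70.2 FPKM after PIC above Jak1 at 34.9 and 42.0 FPKM.

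The receptor genes moved little. Ifnar1 read 12.1, 13.0 and 12.8 FPKM in Control, 11.9, 12.8 and 12.3 FPKM in LPS, and 14.5, 14.5 and 14.5 FPKM in PIC. After TBHQ it read 11.7, 12.8 and 12.5 FPKM without a stimulus, 12.9, 12.9 and 12.3 FPKM before LPS, and 15.6, 14.7 and 13.6 FPKM before PIC. On FPKM the 6 libraries with PIC, with or without TBHQ, lay above the 12 others. On CPM this separation was absent, with 77.0 to 77.4 in PIC, 76.7 to 87.7 in PIC+TBHQ and 75.3 to 81.5 in Control. Against Control, Ifnar1 rose by 0.18 ± 0.03 on the log2 scale with PIC (adjusted p = 0.0021) and by 0.21 ± 0.06 with PIC+TBHQ (adjusted p = 6.40e-04). These calls depend on the scaling. When libraries were scaled by their totals alone, the median of all genes shifted by -0.22 with PIC, -0.15 with PIC+TBHQ and -0.13 for PIC against LPS. Ifnar1 then read -0.04 with PIC (adjusted p = 0.53), 0.06 with PIC+TBHQ (adjusted p = 0.34) and -0.13 with LPS (adjusted p = 0.033, called there and not with TMM). Ifnar2 ranged from 10.5 to 14.1 FPKM over the 18 libraries, neighbouring conditions overlapped throughout the order of its means, and on CPM the Control libraries (41.3 to 45.0) lay above those of LPS (36.9 to 39.1), PIC (33.2 to 36.5) and PIC+TBHQ (33.1 to 39.0). Ifnar2 was not called in any of the 9 comparisons with TMM and all libraries. Total library size called it lower with PIC (-0.29, adjusted p = 5.77e-04), LPS+TBHQ (-0.18, adjusted p = 0.029) and PIC+TBHQ (-0.27, adjusted p = 0.0012), and the last was also called with TMM without PIC+TBHQ replicate 3 (-0.21, adjusted p = 0.022). The files place Ifnar1 on chromosome 16 at 91282126-91304329 and Ifnar2 at 91169671-91202477, both on the plus strand, so the receptor genes are close neighbours. In these positions Ifnar2 overlaps Gm21970 on the same strand, which had 0 counts in every library. Of the 50-base words in Ifnar2 transcripts 7.89% also occur in other genes, with Gm21970 sharing the most. Reads in that overlap are therefore uncertain. The processing notes name the builds GRCm38 and mm39. The positions do not follow GRCm38, since each of the 9 genes lies 22600 to 203112 bases from its place in the GENCODE vM21 annotation of that build, with the same length, and 10.6% of 52034 genes overlap their place there. They are given as the files list them, which leaves mm39 of the named builds, and they cannot be set beside the GRCm38.p6 promoter positions.

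Among the kinase genes, Jak2 showed the widest change. Jak2, whose product serves the interferon gamma receptor and many cytokine receptors, read 7.45, 8.53 and 7.84 FPKM in Control, 13.0, 14.1 and 13.6 FPKM in LPS, and 18.9, 19.3 and 19.1 FPKM in PIC. With TBHQ it read 7.58, 7.48 and 7.64 FPKM alone, 10.5, 9.78 and 10.3 FPKM before LPS, and 13.5, 14.3 and 12.9 FPKM before PIC. PIC stood highest, PIC+TBHQ and LPS overlapped below it (with LPS the higher on CPM), LPS+TBHQ followed, and Control and TBHQ overlapped at the bottom. Jak2 rose by 0.76 ± 0.07 with LPS (adjusted p = 2.60e-14) and by 1.25 ± 0.06 with PIC (adjusted p = 4.09e-21), or 1.70-fold and 2.38-fold. TBHQ before the stimulus lowered it 1.33-fold against LPS (log2 change -0.41 ± 0.05, adjusted p = 1.47e-07) and 1.40-fold against PIC (-0.48 ± 0.04, adjusted p = 1.33e-09). On mean FPKM, 40.5% of the rise with LPS and 50.6% of the rise with PIC were present after TBHQ, or 37.3% and 51.4% on mean CPM.

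Jak1, whose product binds the interferon receptors and gp130, read 28.1, 25.4 and 24.8 FPKM in Control, 36.5, 35.5 and 32.7 FPKM in LPS, and 42.8, 42.2 and 41.0 FPKM in PIC. It read 26.3, 25.1 and 25.7 FPKM in TBHQ, 33.0, 31.7 and 31.3 FPKM in LPS+TBHQ, and 36.6, 36.4 and 36.9 FPKM in PIC+TBHQ. The order was PIC, PIC+TBHQ, LPS, LPS+TBHQ, Control and TBHQ, where only PIC against PIC+TBHQ and LPS+TBHQ against Control were free of overlap between neighbours. Jak1 rose by 0.41 ± 0.07 with LPS (adjusted p = 3.13e-10) and by 0.67 ± 0.06 with PIC (adjusted p = 4.32e-16). TBHQ before PIC lowered it by a log2 value of -0.19 ± 0.02 (adjusted p = 6.23e-04). The corresponding value before LPS, -0.13 ± 0.05 (adjusted p = 0.026), came with overlapping libraries. It was no longer called without LPS replicate 1 (-0.09, adjusted p = 0.16), without LPS replicate 2 (-0.11, adjusted p = 0.093), without LPS+TBHQ replicate 2 (-0.12, adjusted p = 0.085) or without LPS+TBHQ replicate 3 (-0.11, adjusted p = 0.11). With all libraries it was also not called by total library size (-0.10, adjusted p = 0.075), without a filter on low counts (-0.11, adjusted p = 0.052) or by limma on log2(FPKM + 1) (-0.12, adjusted p = 0.065).

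Tyk2, whose product is the kinase bound to IFNAR1, ranged from 9.74 to 10.4 FPKM in Control, 13.26 to 14.04 FPKM in LPS and 14.4 to 15.3 FPKM in PIC. Both stimuli raised it, by 0.44 ± 0.03 with LPS (adjusted p = 5.16e-10) and by 0.56 ± 0.04 with PIC (adjusted p = 7.89e-13). The values after TBHQ were 12.2 to 13.1 FPKM before LPS and 13.8 to 14.3 FPKM before PIC, each below the 3 libraries of the stimulus alone, but on CPM the libraries overlapped with those of the stimulus in both cases. The changes of -0.09 ± 0.04 (adjusted p = 0.14) and -0.06 ± 0.03 (adjusted p = 0.34) did not pass the test.

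The STAT genes differed in how they responded to TBHQ. Stat2, whose product joins IRF9 in the interferon-induced factor ISGF3, read 13.6, 13.1 and 14.3 FPKM in Control, 22.2, 19.8 and 19.7 FPKM in LPS, and 25.4, 25.7 and 24.8 FPKM in PIC. It read 8.12, 8.63 and 8.37 FPKM in TBHQ, 12.3, 11.4 and 11.7 FPKM in LPS+TBHQ, and 18.2, 18.2 and 16.1 FPKM in PIC+TBHQ. No condition overlapped with its neighbour in the order PIC, LPS, PIC+TBHQ, Control, LPS+TBHQ and TBHQ. Stat2 rose by 0.58 ± 0.07 with LPS (adjusted p = 5.09e-12) and by 0.87 ± 0.04 with PIC (adjusted p = 3.24e-17). TBHQ lowered it in each setting: 1.64-fold alone (-0.71 ± 0.05, adjusted p = 8.88e-13), 1.75-fold before LPS (-0.80 ± 0.06, adjusted p = 5.06e-15) and 1.44-fold before PIC (-0.52 ± 0.06, adjusted p = 1.26e-10). LPS+TBHQ cells thus held less Stat2 than untreated cells, by a log2 value of -0.22 ± 0.05 (adjusted p = 6.07e-04), whereas PIC+TBHQ cells held more, by 0.35 ± 0.07 (adjusted p = 4.23e-07).

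Stat3, the factor downstream of IL-6 and IL-10, read 10.3, 10.4 and 10.8 FPKM in Control, 12.6, 11.5 and 11.9 FPKM in LPS, and 15.5, 14.9 and 14.7 FPKM in PIC. It read 8.32, 8.69 and 8.21 FPKM in TBHQ, 12.2, 12.1 and 11.2 FPKM in LPS+TBHQ, and 13.6, 13.6 and 13.5 FPKM in PIC+TBHQ. The order was PIC, PIC+TBHQ, LPS, LPS+TBHQ, Control and TBHQ, with overlap between LPS and LPS+TBHQ alone. On CPM the LPS and LPS+TBHQ libraries overlapped with Control as well, and LPS+TBHQ had the higher mean. The rise was 0.18 ± 0.04 with LPS (adjusted p = 7.36e-04) and 0.50 ± 0.03 with PIC (adjusted p = 2.41e-12). TBHQ alone lowered Stat3 1.25-fold (-0.33 ± 0.03, adjusted p = 4.65e-07), and before PIC the change was -0.14 ± 0.02 (adjusted p = 0.012). Before LPS it was -0.02 ± 0.05 (adjusted p = 0.81). Scaled by library totals, the calls with LPS (0.09, adjusted p = 0.076), LPS+TBHQ against Control (0.10, adjusted p = 0.063) and PIC+TBHQ against PIC (-0.07, adjusted p = 0.23) were lost. In the authors' positions the 3′ end of Stat3 overlaps that of Stat5a on the opposite strand, which averaged 343 counts. The libraries were strand-specific, but whether the counting used strand is not given, so reads in that overlap are uncertain.

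Socs3 changed most of the 9 genes. Its product is a feedback inhibitor of cytokine receptor signalling. It read 2.43, 2.42 and 2.52 FPKM in Control (108, 114 and 123 counts), 44.5, 41.7 and 45.2 FPKM in LPS, and 67.0, 71.4 and 72.1 FPKM in PIC. It read 4.30, 4.19 and 4.06 FPKM in TBHQ, 24.4, 23.5 and 25.0 FPKM in LPS+TBHQ, and 45.4, 41.5 and 42.6 FPKM in PIC+TBHQ. PIC stood highest, LPS and PIC+TBHQ overlapped, and LPS+TBHQ, TBHQ and Control followed without overlap. The gene lies on chromosome 11 at 117856905-117860873, minus strand.

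Against Control, Socs3 rose 17.7-fold with LPS (4.15 ± 0.04, adjusted p = 7.77e-34) and 28.2-fold with PIC (4.82 ± 0.04, adjusted p = 1.24e-36). TBHQ before the stimulus lowered it 1.80-fold against LPS (-0.85 ± 0.04, adjusted p = 5.56e-17) and 1.61-fold against PIC (-0.69 ± 0.05, adjusted p = 2.90e-15). It still stood 9.83-fold above Control after LPS+TBHQ and 17.5-fold above it after PIC+TBHQ. On mean FPKM, 52.9% of the LPS rise and 60.1% of the PIC rise were present after TBHQ, or 53.6% and 63.5% on mean CPM. TBHQ alone went the other way and raised Socs3 1.70-fold (0.76 ± 0.03, adjusted p = 1.53e-08, higher in 3 of 3 libraries).

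Socs1, which encodes an inhibitor acting on the JAK kinases themselves, had only 26 to 49 counts in a library, or 0.51 to 1.05 FPKM. Its conditions overlapped along the whole order of their means. The change was 0.51 ± 0.14 with LPS (adjusted p = 0.080), 0.34 ± 0.21 with PIC (adjusted p = 0.24) and -0.63 ± 0.17 for LPS+TBHQ against LPS (adjusted p = 0.053), none of which edgeR called. The 3 LPS libraries (0.866 to 1.05 FPKM) lay above those of Control (0.591 to 0.784 FPKM) and LPS+TBHQ (0.510 to 0.745 FPKM). limma on log2(FPKM + 1) did call it with LPS (0.23, adjusted p = 0.027), with PIC+TBHQ (0.21, adjusted p = 0.036) and for LPS+TBHQ against LPS (-0.27, adjusted p = 0.021). edgeR called the last without LPS+TBHQ replicate 2 (-0.77, adjusted p = 0.040). Within a library, the ratio of Socs3 to Socs1 on the FPKM scale averaged 3.69 in Control, 45.9 in LPS and 83.9 in PIC.

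**Figure D1:**
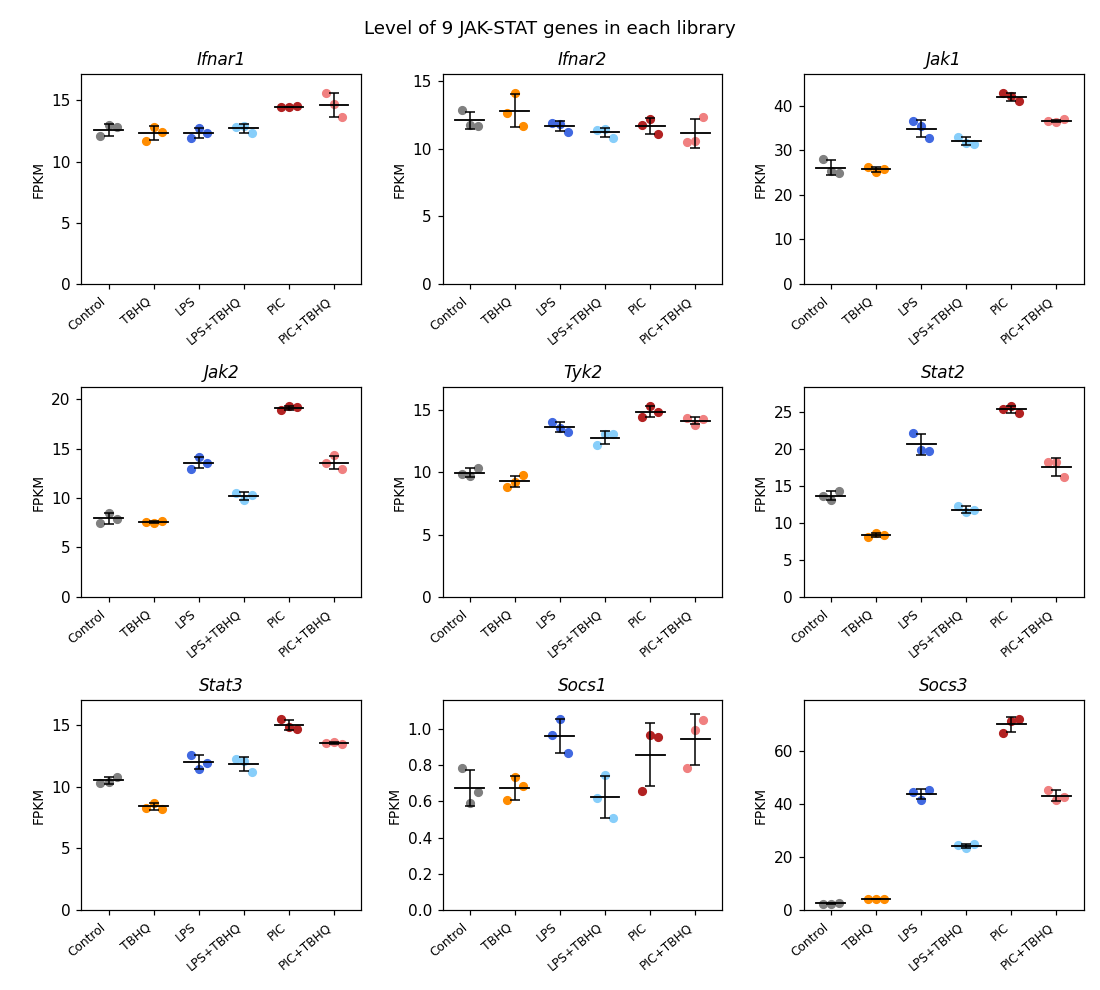
Level of each of the 9 genes in FPKM (vertical axes from 0, each with its own scale) in the 3 libraries of each condition (points), with the mean (long bar) and SD (error bar). Socs3 goes from 2.46 FPKM in Control to 70.2 FPKM in PIC, Stat2 is lower in each condition with TBHQ than in the matching one without it, and Ifnar2 stays between 10.5 and 14.1 FPKM.

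The response to each stimulus was asked of all 9 genes with the same 3 Control libraries, which every comparison with Control shares. With LPS, 6 of 9 genes rose (Jak1, Jak2, Tyk2, Stat2, Stat3 and Socs3), where 24.0% of all tested genes rose and 24.1% fell, and the median log2 change of the 9 was 0.44 beside 0.00 over all genes. With PIC, 7 of 9 rose, Ifnar1 in addition, where 28.6% of tested genes rose and 30.1% fell, with a median of 0.56 beside -0.01. By total library size 5 rose and 1 fell with LPS, and 6 rose and 1 fell with PIC. The study's own threshold, an FDR below 0.01 and a change above 2 in absolute log2 value, left Socs3 alone among the 9 in both, where 1.64% of tested genes passed it with LPS and 3.57% with PIC.

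PIC and LPS were also compared directly. Relative to LPS, PIC gave higher levels of 6 of the 9 genes, where 14.9% of tested genes were higher and 12.8% lower. Socs3 differed most at 0.67 ± 0.05 (adjusted p = 7.47e-15), then Jak2 at 0.49 ± 0.04 (adjusted p = 1.61e-09) and Stat3 at 0.32 ± 0.04 (adjusted p = 4.35e-07). Stat2 at 0.29, Jak1 at 0.26 and Ifnar1 at 0.22 completed the 6, and Ifnar1 lost its call with total library size (0.09, adjusted p = 0.15). Tyk2, at 0.12 ± 0.03, did not pass (adjusted p = 0.057), and its libraries were separate on FPKM and overlapped on CPM. DESeq2 called it (0.13, adjusted p = 0.046), as did RLE factors (0.13, adjusted p = 0.036), a filter at a mean of 50 counts (0.12, adjusted p = 0.039), limma on log2(FPKM + 1) (0.12, adjusted p = 0.045) and on log2(FPKM + 0.1) (0.12, adjusted p = 0.048). It was also called by edgeR without PIC replicate 1 (0.14, adjusted p = 0.045). Total library size gave -0.01 (adjusted p = 0.83). The LPS and PIC doses differ in mass and kind, so the comparison holds for these doses only.

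TBHQ alone, at 4 h, changed 3 of the 9 genes. Socs3 rose while Stat2 and Stat3 fell, where 14.2% of tested genes rose and 14.8% fell. The remaining 6 had log2 values from -0.11 to 0.08, and the median of the 9 was -0.04 beside 0.00 over all genes. At the study's threshold 0.190% of tested genes passed, and the largest absolute change among the 9 was the 0.76 of Socs3. Tyk2, at -0.11 (adjusted p = 0.091), was called when TBHQ replicate 3 was left out (-0.14, adjusted p = 0.042).

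TBHQ before LPS lowered 4 of the 9 genes against LPS (Socs3, Stat2, Jak2 and Jak1), where 11.7% of tested genes were higher and 12.2% lower. The median of the 9 was -0.13 beside 0.00 over all genes. TBHQ before PIC lowered 5 against PIC (Socs3, Stat2, Jak2, Jak1 and Stat3), where 15.8% of tested genes were higher and 15.5% lower, with a median of -0.14 beside 0.01. By total library size 3 were lower before LPS and 4 before PIC. The other members had log2 values from -0.63 to 0.04 before LPS and from -0.06 to 0.14 before PIC. Whether the TBHQ effect itself differed between the stimuli was tested as a difference of differences. Stat2 was called there, with a value of 0.28 ± 0.09 (adjusted p = 0.028), as its fall was smaller with PIC; 0.825% of tested genes were higher and 1.01% lower in this test. The call did not hold without LPS replicate 1, PIC replicate 1 or 3, LPS+TBHQ replicate 2 or 3, or PIC+TBHQ replicate 1 or 2, where the value ran from 0.22 to 0.28 (adjusted p from 0.062 to 0.12). For Jak2 the difference was -0.07 ± 0.06 (adjusted p = 0.73) and for Socs3 0.16 ± 0.07 (adjusted p = 0.21).

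**Figure D2:**
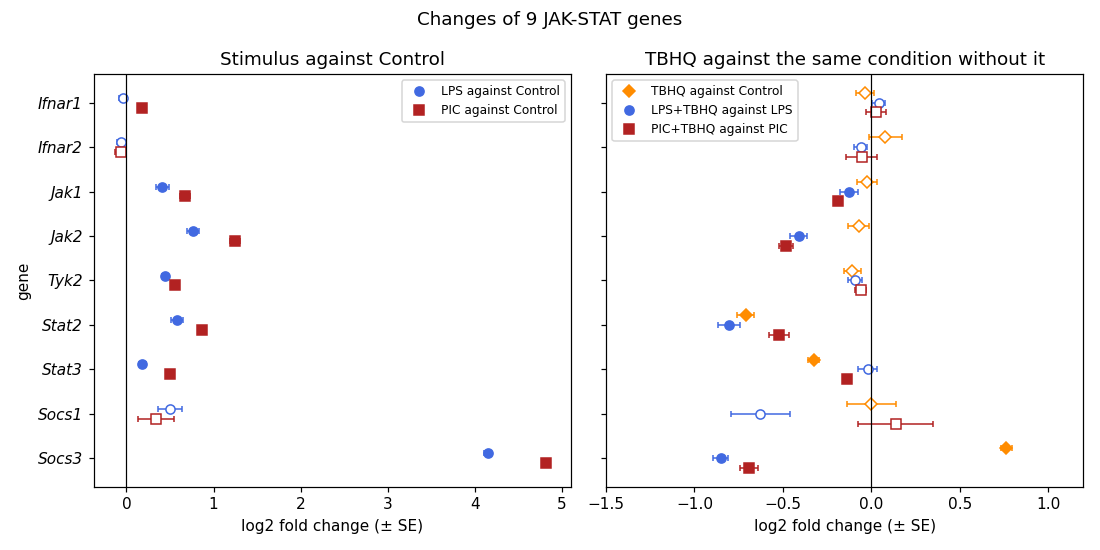
Log2 fold change (horizontal axes) with SE (bars) of the 9 genes, for each stimulus against Control (left) and for TBHQ against the same condition without it (right), with filled symbols for an FDR below 0.05 and open symbols otherwise. Socs3 and Stat2 are lower with TBHQ before either stimulus, and TBHQ alone has Socs3 at 0.76 and Stat2 at -0.71.

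Against untreated cells, LPS+TBHQ left 5 of 9 genes higher (Jak1, Jak2, Tyk2, Stat3 and Socs3) and Stat2 lower, where 21.2% of tested genes were higher and 22.5% lower. PIC+TBHQ left 7 higher, where 26.4% of tested genes were higher and 26.0% lower. By total library size, LPS+TBHQ left 4 of the 9 higher and 2 lower. PIC+TBHQ left 6 of them higher and 1 lower on that scaling. Socs3 alone of the 9 passed the study's threshold in each, as did 0.964% of tested genes with LPS+TBHQ and 2.15% with PIC+TBHQ. Side by side, Jak2 stood at 0.76 with LPS and 0.35 with LPS+TBHQ, and at 1.25 with PIC and 0.77 with PIC+TBHQ. For Tyk2 the corresponding values were 0.44 and 0.35, and 0.56 and 0.50.

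Genes of the same pathway outside the 9 were followed in lists. Of 16 ligand genes 7 were tested. Csf2 and Clcf1 reached the count filter in stimulated libraries and not in Control, so the filter fixed their direction. The 5 that reached it in Control as well rose with LPS and with PIC, where 24.0% and 28.6% of all tested genes rose. Csf3, which encodes the granulocyte growth factor G-CSF, rose by 8.06 ± 0.42 with LPS (adjusted p = 5.61e-37) and by 8.89 ± 0.42 with PIC (adjusted p = 1.64e-38). Lif and Il6, which encode cytokines signalling through gp130, rose by 4.81 and 3.12 with LPS and by 7.51 and 5.30 with PIC. With TBHQ, the 4 that reached the filter in both LPS and LPS+TBHQ were lower before LPS, with a median of -0.86, where 12.2% of all tested genes were lower. The 5 that reached it in both PIC and PIC+TBHQ were lower before PIC, with a median of -1.82, where 15.5% of all tested genes were lower. Il27 fell by 2.09 ± 0.26 before PIC, and before LPS it is not counted, as it did not reach the filter in LPS+TBHQ. The log2 changes before LPS and before PIC were -1.57 ± 0.16 and -1.82 ± 0.08 for Lif, and -1.34 ± 0.15 and -1.85 ± 0.11 for Il6. With TBHQ alone, 3 of the 7 reached the filter there and in Control, with 2 higher and 0 lower. Of all tested genes 14.2% were higher and 14.8% lower. Csf3 rose by 2.22 ± 0.42 and Lif by 2.21 ± 0.19. Il6 and Il27 missed the filter with TBHQ alone, so they are not counted. Their counts there were 6 to 8 and 5 to 7, below 15 to 23 and 11 to 17 in Control. The interferon beta gene Ifnb1, chosen after its values were seen, was too low to test, with 4 to 12 counts in PIC and at most 3 counts in every other library.

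Of 17 other receptor genes 13 were tested. Among those not tested, the LIF receptor gene Lifr and the oncostatin M receptor gene Osmr were not detected. They had at most 1 and 2 counts in a library. LPS raised 5 and lowered 3 of the 13 tested, or 5 and 4 by total library size, where 24.0% of all tested genes rose and 24.1% fell. PIC raised 8 and lowered 2, or 6 and 3 by total library size, where 28.6% of all tested genes rose and 30.1% fell. Il4ra, a subunit of the IL-4 receptor, rose by 1.98 ± 0.26 with LPS and 2.51 ± 0.22 with PIC, and Il10ra, the ligand-binding subunit of the IL-10 receptor, by 1.32 ± 0.07 and 1.97 ± 0.07. Il6ra, the IL-6 binding subunit, fell by 0.78 ± 0.05 and 1.12 ± 0.11, and Ifngr1 by 0.42 ± 0.11 and 0.35 ± 0.09. Before LPS, TBHQ lowered 4 and raised 1, where 12.2% of all tested genes were lower and 11.7% higher. Before PIC it lowered 5 and raised 1, beside 15.5% and 15.8% of all tested genes. Il13ra1 fell by 0.85 ± 0.04 and 0.58 ± 0.03 there, and Il10ra by 0.57 ± 0.28 and 0.50 ± 0.10, while Csf2ra rose by 0.13 ± 0.09 and 0.27 ± 0.03. The Csf2ra value before LPS came with overlapping libraries, at 59.3 to 71.7 FPKM in LPS and 70.9 to 75.0 FPKM in LPS+TBHQ. The Il10ra value before LPS leans on 1 low library. Il10ra read 1.97, 3.24 and 3.75 FPKM in LPS+TBHQ, against 4.32 to 4.56 FPKM in LPS.

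A list of 7 further kinase and transcription factor genes had 6 tested. LPS raised 3 of them and lowered 1, or 3 and 2 by total library size, beside 24.0% and 24.1% of all tested genes. PIC raised 4 and lowered none, or 2 and 2 by total library size, beside 28.6% and 30.1%. Irf9, the DNA-binding partner of STAT2, rose by 0.39 ± 0.03 with LPS (adjusted p = 2.71e-08) and 0.49 ± 0.04 with PIC (adjusted p = 5.66e-11). It fell by 0.30 ± 0.05 with TBHQ before LPS and by 0.22 ± 0.05 before PIC, where 3 of the 6 fell in each, beside 12.2% and 15.5% of all tested genes. Jak3, the kinase paired with the common gamma chain, rose by 0.43 ± 0.08 with LPS and 0.28 ± 0.07 with PIC, and fell by 0.48 ± 0.07 with TBHQ alone.

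Among 17 other negative regulators 16 were tested, with 3 higher and 3 lower after LPS, and 6 higher and 7 lower after PIC. Of all tested genes 24.0% were higher and 24.1% lower after LPS, and 28.6% higher and 30.1% lower after PIC. By total library size these counts were 3 and 6, and 4 and 9, and the median after PIC went from 0.04 to -0.17. Cish reached the count filter in stimulated libraries and not in Control, and the other 15 tested had 2 higher and 3 lower after LPS, and 5 higher and 7 lower after PIC. Usp18, which encodes a protease that also blocks signalling at IFNAR2, rose by 0.44 ± 0.05 with LPS and 0.68 ± 0.04 with PIC. Its values with TBHQ were lower, by 0.53 ± 0.03 alone, 0.68 ± 0.04 before LPS and 0.38 ± 0.03 before PIC. Socs5 rose by 0.38 ± 0.06 with LPS and 0.56 ± 0.04 with PIC. With TBHQ before LPS 3 were higher and 3 lower of the 15 other than Cish, beside 11.7% and 12.2% of all tested genes. Before PIC 3 of the 16 were higher and 5 lower, or 6 and 4 by total library size, beside 15.8% and 15.5% of all tested genes. Ptpn1 and Ptpn6, which encode phosphatases that act on JAK and cytokine receptor signalling, were higher with TBHQ before PIC, by 0.35 ± 0.04 and 0.11 ± 0.03.

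Genes known to be driven by ISGF3 were followed as a further list, with 12 of 12 tested. Whether ISGF3 itself drove their changes here was not tested. LPS raised 11 of them, where 24.0% of all tested genes rose, with a median of 1.21 beside 0.00 over all genes. PIC raised all 12, where 28.6% of all tested genes rose, with a median of 2.21 beside -0.01. Rsad2, which encodes the antiviral enzyme viperin, went from 20.9 FPKM in Control to 80.4 FPKM in LPS and 304 FPKM in PIC. Mx1 had 1 to 3 counts in the LPS+TBHQ libraries and did not reach the count filter there, so it is left out of the counts for that condition. TBHQ lowered the other 11 before LPS and all 12 before PIC, where 12.2% and 15.5% of all tested genes were lower. The medians were -1.39 beside 0.00 over all genes before LPS and -1.22 beside 0.01 before PIC. Rsad2 fell by 2.33 ± 0.06 and 1.64 ± 0.07, and Ifit2 by 2.04 ± 0.08 and 1.57 ± 0.05. Ifit3 fell by 3.12 ± 0.19 and 1.80 ± 0.13. Of its 50-base words 51.2% also occur in other genes, with Ifit3b sharing the most, so reads may be divided between these genes.

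Of these 12 genes Mx1 did not reach the count filter with TBHQ alone either. TBHQ alone lowered 10 of the other 11, where 14.8% of all tested genes fell and 14.2% rose. It raised Cxcl10, by 0.65 ± 0.11 (adjusted p = 5.83e-06). Isg15 fell by 0.91 ± 0.09 and Ifit2 by 0.98 ± 0.09. In LPS+TBHQ cells 7 of the 11 other than Mx1 lay below Control and 4 above (2 above by total library size), beside 22.5% and 21.2% of all tested genes, with Ifit2 at -1.34 ± 0.09 and Oasl1 at 0.58 ± 0.05. In PIC+TBHQ cells 10 lay above Control and none below (1 below by total library size), beside 26.4% and 26.0% of all tested genes, with Oasl1 at 2.82 ± 0.05. In the test of the difference of the TBHQ effect, 8 of the 11 other than Mx1 were called, each with a smaller fall with PIC, beside 0.825% of all tested genes in that direction. Irf7, which encodes a transcription factor of the interferon response, differed by 0.63 ± 0.05 (adjusted p = 3.59e-10), and Rsad2 by 0.69 ± 0.09 (adjusted p = 3.65e-07).

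Genes known as STAT3 targets, a list of 8 that holds Socs3, had 8 of 8 higher with LPS and with PIC, with medians of 1.62 beside 0.00 over all genes and 1.81 beside -0.01, and 7 of 8 in each by total library size. Of all tested genes 24.0% and 28.6% were higher there. With TBHQ 8 of 8 fell before LPS and 7 of 8 before PIC (6 by total library size), beside 12.2% and 15.5% of all tested genes, with medians of -0.50 and -0.52 beside 0.00 and 0.01 over all genes. Il1rn, which encodes the IL-1 receptor antagonist, rose by 2.98 ± 0.04 with LPS and 3.79 ± 0.04 with PIC, and fell by 1.05 ± 0.04 and 1.01 ± 0.03 with TBHQ. TBHQ alone raised 4 of the 8 and lowered 1, beside 14.2% and 14.8% of all tested genes. It raised Socs3, Myc (0.59 ± 0.13) and Bcl3 (0.45 ± 0.06) most, and lowered Mcl1 (-0.14 ± 0.01).

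As a check on the TBHQ treatment, genes known as targets of the antioxidant factor NRF2 were counted. Of 8 tested, Nqo1 reached the count filter in each condition with TBHQ and in none without it, so the filter fixed its direction. The other 7 rose with TBHQ alone, with a median of 1.57 beside 0.00 over all genes, where 14.2% of all tested genes rose. The list was not particular to TBHQ. Of these 7, 6 rose with LPS alone and 6 with PIC alone, each with a median of 0.93. Of all tested genes 24.0% rose with LPS and 28.6% with PIC. With TBHQ in each stimulus 6 of these 7 were higher, beside 11.7% of all tested genes with LPS and 15.8% with PIC. Hmox1, which encodes a heme-degrading enzyme, went the other way, by -0.30 ± 0.04 with LPS (adjusted p = 1.97e-08) and -0.16 ± 0.03 with PIC (adjusted p = 2.90e-04). It averaged 194 FPKM in Control, 829 FPKM in TBHQ, 980 FPKM in LPS and 1164 FPKM in PIC. As a check on scaling, the median of 8 housekeeping genes was -0.03 with TBHQ alone, 0.07 with LPS and 0.25 with PIC, against -0.03, -0.02 and 0.03 by total library size. The macrophage markers were themselves changed in both directions, with 3 higher and 3 lower of 7 tested after PIC, beside 28.6% and 30.1% of all tested genes, and their summed level, the constant included, ran from 5685 FPKM in TBHQ to 6450 FPKM in LPS+TBHQ on average. Their part in the results was not tested.

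Ratios within a library, on the FPKM scale, describe how the balance among members moved. Stat2 to Stat3 ran from 1.25 to 1.32 in Control and averaged 1.71 ± 0.0543 (SD, n = 3) in LPS and 1.68 ± 0.0435 in PIC. After TBHQ it averaged 0.996 ± 0.0214 alone, 0.996 ± 0.0481 before LPS and 1.29 ± 0.0813 before PIC, each below the matching condition without it. Socs3 to Stat3 averaged 0.234 ± 0.00219 in Control, 3.65 ± 0.131 in LPS and 4.67 ± 0.306 in PIC, against 2.06 ± 0.147 in LPS+TBHQ and 3.18 ± 0.151 in PIC+TBHQ. Jak1 to Jak2 fell from 3.31 ± 0.415 in Control to 2.20 ± 0.0622 in PIC.

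Likeness was described by Pearson's r of log2 CPM over the 18 libraries, which share conditions and so give many high values. The genes most like Socs3 were Plagl2, Ccl2 and Tnfrsf1b, each with r from 0.994 to 0.997, and 7.36% of 10450 genes compared had an r above 0.9. Most like Stat2 were Dhx58, Rnf213 and Ifi209 (r from 0.987 to 0.989), of which Ifi209 shares 33.8% of its 50-base words with other genes. Jak2 was most like Btg1, Rap1b and Mxd1 (r from 0.991 to 0.995). Jak1 was closest to Mapre2, Lilrb4b and Fzd5, Tyk2 to Hax1, Sars and Gch1, and Stat3 to P4hb, Nedd4l and Adamts1, with r from 0.977 to 0.988. Of these, Hax1 shares 28.4% of its 50-base words with other genes. The highest r was 0.902 for Ifnar1 (Llgl2), 0.782 for Ifnar2 (Slc25a30) and 0.737 for Socs1 (Dock8). Between members, r was highest for Jak1 with Jak2 at 0.959 and Tyk2 with Socs3 at 0.956, and Stat2 with Socs3 gave 0.747.

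The promoters of all 9 genes were matched in RefSeq windows (build GRCm38.p6) running from 250 bases before to 50 bases after the gene start, and searched on both strands for 3 short motifs. The interferon gamma activated site, bound by STAT dimers, was written TTCNNNGAA, which reads the same on either strand, and occurred in 8.30% of 32851 promoters. The core of the interferon-stimulated response element, bound by ISGF3, was written GAAANNGAAA or TTTCNNTTTC and occurred in 3.44%. The antioxidant response element core TGACNNNGC or GCNNNGTCA occurred in 12.4%. Matches to the activated site stood in 3 of 9 members, to the response element core in 2 and to the antioxidant element in none, and no match of one motif overlapped a match of another in a member. Of 9 ISGF3 target genes with a promoter in the table, 6 held the response element core. The members with the activated site were Socs3, Ifnar1 and Ifnar2. In Ifnar1, whose call with PIC depended on the scaling, it began 5 bases upstream of the start and is not printed here. The windows of Socs3 and Stat2, which rose with both stimuli, and of Socs1 and Ifnar2, which were not called, are shown with the match in capitals, 5′ to 3′ on the strand of the gene.
Socs3: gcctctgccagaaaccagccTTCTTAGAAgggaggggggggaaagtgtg
Stat2: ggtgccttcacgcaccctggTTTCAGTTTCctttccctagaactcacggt
Socs1: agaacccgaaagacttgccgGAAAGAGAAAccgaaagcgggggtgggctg
Ifnar2: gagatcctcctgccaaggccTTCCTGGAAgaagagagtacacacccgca

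The Socs3 match began 154 bases upstream of the start, in chr11:117969492-117969540 on the minus strand, and the Stat2 match 222 bases upstream, in chr10:128270256-128270305 on the plus strand. The Socs1 match began 83 bases upstream, in chr16:10785590-10785639 on the minus strand, and overlaps another match of the same core, GAAACCGAAA, that began 77 bases upstream. The Ifnar2 match began 214 bases upstream, in chr16:91372549-91372597 on the plus strand. These distances are from the RefSeq start. For Socs3 that start lies 681 bases downstream of the 5′ end of the gene in GENCODE vM21, so the printed stretch is inside the gene by that annotation, whereas for the other 8 members the starts differ by at most 61 bases. A match describes letters only, and members with and without one moved in these data.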

How the data were processed

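The authors deposited raw counts per gene, made by aligning strand-specific paired reads with HISAT2 2.0.5 and counting with featureCounts 1.5.0-p3 per the submitters' processing notes, which also name StringTie 1.3.3b. The deposited FPKM equal counts scaled by the length of the gene and the total of the library, times a constant per library of 0.943 to 1.12. Tables were read with Python 3.11.15 and pandas 2.3.3. Counts were tested in R 4.3.3 with edgeR 4.0.16 (filterByExpr, TMM, glmQLFit and glmQLFTest) in a single fit of 18 libraries with a coefficient per condition, and p-values were adjusted by Benjamini-Hochberg over 13691 genes. The common dispersion was 0.00192. Log2 CPM used a prior count of 2. The methods call the replicates biological; where nothing states separate cultures, p-values measure only the spread between these samples. Pairs of replicates differed by a chi-square of 2.49 to 4.61 per gene, above sampling noise.

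The members and gene lists were chosen with earlier results of these data known. Named genes were the 9 members and, per list, comparison and direction, up to 3 called genes with the largest change among those with a mean of at least 50 counts, of which the text gives a part. Likeness named the 3 genes with the highest r. Shared 50-base words were counted in GENCODE vM21 transcripts. Counting intervals and floors cover counting error only. Alternatives were DESeq2 1.42.0, limma 3.58.1 on log2(FPKM + 1) and log2(FPKM + 0.1), the compared conditions only, RLE factors, total library size, other count filters, the replicate number as a block, a stricter threshold and leaving out each library.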

Additional observations from a re-analysis of the deposited data

Results flagged for a closer look

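Stat2 came up because the test of the difference between stimuli passed for it. TBHQ changed Stat2 by -0.80 before LPS and by -0.52 before PIC on the log2 scale, and the difference was 0.28 (adjusted p = 0.028). Leaving out 1 library gave differences from 0.22 to 0.34. The call was lost without LPS replicate 1, PIC replicate 1 or 3, LPS+TBHQ replicate 2 or 3, or PIC+TBHQ replicate 1 or 2.

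Socs3 came up because TBHQ moved it in opposite directions, with every library of a condition on the same side. Alone, TBHQ raised it by 0.76, whereas before a stimulus its log2 change was -0.85 against LPS and -0.69 against PIC. The difference between TBHQ alone and TBHQ before a stimulus was not tested. TBHQ alone was also harvested at another time, 4 h, than Control and the stimulated conditions.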

How the results depend on the processing

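Of 1260 log2 changes of single members under the alternatives, 1217 kept their side of the threshold and, where called, their direction, while 23 lost a call, 19 gained one and 1 reversed. The reversed one was Ifnar1 with PIC by total library size (-0.037), a scaling that shifted the median of all genes in this comparison by -0.22 and each gene with it. A stricter rule was an FDR below 0.01 with an absolute log2 change above 1. Under it, members called against Control were 0 for TBHQ, 1 for LPS, 2 for PIC, 1 for LPS+TBHQ and 1 for PIC+TBHQ, with 190, 880, 1645, 591 and 1100 genes called. For TBHQ before LPS, TBHQ before PIC, the stimuli compared directly and the difference test it called 0 members each, with 183, 233, 177 and 13 genes. In the difference test, members called were 0 with the compared conditions only (Stat2 0.27, adjusted p = 0.055) and with limma on log2(FPKM + 1) (0.24, adjusted p = 0.13) or log2(FPKM + 0.1) (0.26, adjusted p = 0.13). Genes called there were 380 with no filter on low counts and 147 with limma on log2(FPKM + 0.1), beside 251, and the cause was not tested. Leaving out 1 library, members called there ran from 0 to 1 and genes from 160 (without LPS+TBHQ replicate 2) to 354 (without LPS replicate 2). In the other comparisons leaving out 1 library moved members called by at most 1. By total library size the share of called genes that were higher went against Control from 49.8% to 35.0% (LPS), 48.7% to 26.4% (PIC), 48.4% to 36.1% (LPS+TBHQ) and 50.4% to 30.0% (PIC+TBHQ). It went from 48.9% to 59.5% for TBHQ before LPS, 50.6% to 70.3% for TBHQ before PIC, and 53.7% to 18.4% for the stimuli compared directly. In the difference test it was 45.0%, but 76.1% by total library size, 31.2% with DESeq2, 32.5% with limma on log2(FPKM + 1), 32.5% without LPS replicate 2 and 32.4% without PIC replicate 2. With the replicate number as a replicate block, members called were 3 for TBHQ, 6 for LPS and 7 for PIC against Control, and 274 genes were called in the difference test. After removal of condition means, libraries of the same number had correlations from -0.072 to 0.14, so the numbers are not taken as pairs.

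Each condition had 3 libraries, and Socs1 had 26 to 49 counts in a library. All comparisons with Control share its 3 libraries. TBHQ alone was harvested at another time than the other conditions, and no DMSO is described for Control, LPS or PIC. RNA levels do not report protein or phosphorylation.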
